A study of Mus musculus with 6 samples.

Results

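The genes examined are a block of neighbours on distal mouse chromosome 4, from Prdm2 to Nol9, with Mtor inside it. The list of 42 symbols was selected on measured values, those of shBrca2 against shControl in the same 6 libraries, so the contrast behind the choice is the contrast described here, and its values for the members are given as a description, with no test. Of the 42 listed genes, 36 have a row in the table of 10616 genes, and Pdpn, Tnfrsf1b, Cort, Rbp7, Pik3cd and Camta1 were not analysed here. In RefSeq's annotation of GRCm38.p6, the assembly behind the submitters' mm10 build, the 36 genes lie between chr4:143107391-152061494, an interval of 8.95 Mb. By GENCODE on GRCm39 the 42 genes span 142.8 to 152.1 Mb, so Prdm2 and Pdpn lie before the lower bound that the list was described with.

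RNA was measured in KPC cells, cultured mouse pancreatic ductal adenocarcinoma cells. Cells of the shBrca2 group (3 libraries) carried a pLKO.1 lentiviral short hairpin RNA against Brca2, and those of the shControl group (3 libraries) carried a non-targeting pLKO.1 hairpin. Both groups were infected and selected with puromycin, so the controls share vector and selection. The sequencing libraries read the 3' ends of polyadenylated RNA from sorted live cells, after a MARS-seq protocol. The sources used here do not say whether the selected cells were a pool or a clone, and they leave unclear what a replicate is. The labels name no separate cultures, while a legend of the study counts 3 mice a group for cells that it describes as cultured, so the spread between libraries may be technical.

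The block holds neighbours with varied tasks. Mtor encodes the kinase at the core of the complexes that couple nutrients and growth factors to protein synthesis and cell growth. Around it lie genes for polyamine synthesis (Srm), nuclear RNA decay (Exosc10), translesion synthesis and the choice of DNA break repair (Mad2l2, whose product is also called Rev7), glycoprotein-directed ubiquitin ligases (Fbxo2, Fbxo6), mitochondrial fusion (Mfn2), oxidative stress defence (Park7) and the circadian clock (Per3). A knocked-down Brca2 is of interest beside them because Brca2 acts in homologous recombination, the pathway whose outcome Rev7 and shieldin influence.

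Total counts ranged from 1519340 to 2452467 per library. Brca2 itself, the check of the labels, had normalized counts of 13.6, 10.4 and 12.2 in shBrca2 and 33.3, 43.6 and 32.6 in shControl, and it fell by a log2 fold change of -1.61 ± 0.44 (SE; adjusted p = 0.029 by DESeq2). Of the epithelial markers, 7 of 8 had a row and their summed normalized count was 16691 to 17543 in shBrca2 and 17647 to 18802 in shControl, led by Krt18 and Krt19, and 1 of them, Krt7, was called higher. Epcam was low among them, with a mean normalized count of 6.52, below the fibroblast marker Col1a2 (13.4) and the immune marker Cd68 (15.6). The part of the epithelial markers in the results was not tested. Of the fibroblast markers 2 of 9 had a row (sums of 17.7 to 22.7 and 13.8 to 42.4), of the immune markers 1 of 6 (12.2 to 20.4 and 11.1 to 16.8) and of the endothelial markers 0 of 4. The largest axis of variation among the libraries, with 40.9% of the variance, did not separate the groups. In bulk libraries such as these, fewer cells of a type and less RNA per cell cannot be told apart.

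Most of the listed genes read lower in shBrca2, down to a log2 fold change of -1.03 for Fbxo2. Fold changes are log2 ratios of normalized counts, shBrca2 over shControl, and a normalized count is a count divided by the library's DESeq2 size factor. Of the 36 genes, 30 were below 0 and 6 above, and their median log2 fold change was -0.34, which corresponds to a median of 78.8% of the shControl mean. Over all 10616 genes the median was -0.00 and 50.1% were below 0. The median SE of a member was 0.308, about as large as the median shift, and 9 members were below -0.5. By DESeq2 (adjusted p under 0.1, absolute log2 fold change over 0.5, mean normalized count over 5), 1 of the 36 was called, Dhrs3, which was higher. Across all genes, 1.27% of the 9997 genes tested were called, 0.5% as lower and 0.77% as higher. No member was called lower (0 of 36 by DESeq2 and 0 of 35 by edgeR, which called 0.473% of all genes lower). At an unadjusted p under 0.05, 6 were lower by DESeq2 and 12 by edgeR, as were 3.88% and 7.13% of all genes by each tool. In 12 members every shBrca2 library lay below every shControl library, as in 10.1% of all genes, and in 1, Dhrs3, every shBrca2 library lay above, as in 10.2%. The list was chosen on this contrast, so nothing is read from these counts.

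The members' median was lower in each shBrca2 library. Relative to the shControl mean, the median log2 difference over the 36 genes was -0.31, -0.29 and -0.34 for shBrca2 and -0.05, 0.05 and 0.02 for shControl. The 36 genes together took 0.168, 0.149 and 0.149% of all counts in shBrca2 and 0.189, 0.207 and 0.197% in shControl. On both measures the 3 libraries of a group lay together and the groups did not overlap. The list was chosen on this contrast in the same libraries, so nothing is read from this separation.

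**Figure D1:**
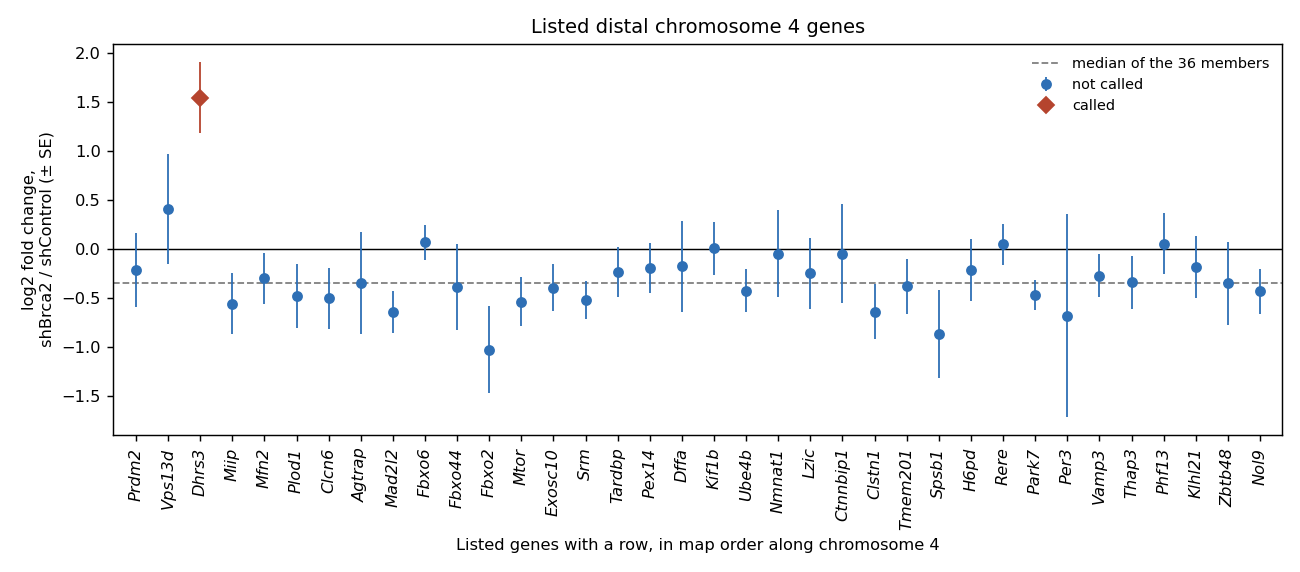
Log2 fold change (shBrca2 over shControl) with its SE for the 36 listed genes with a row, in map order along chromosome 4 with Prdm2 at the left and Nol9 at the right. The dashed line is the median of -0.34, and Dhrs3 is the 1 called gene, marked by a diamond. Fbxo2 is the lowest at -1.03 and 30 of the 36 points lie below 0.

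Promoter sequence is shown for Miip, Mtor, Spsb1 and Park7, in map order, which were picked after their values were seen, as members whose groups did not overlap and whose window lies wholly outside the gene itself. Each line is the 250 bases before the listed RefSeq start on GRCm38.p6, written 5′ to 3′ on the gene's strand. Capitals mark matches on either strand to any of 5 motifs: CCAAT (the CCAAT box), GGGCGG (the GC box), CACGTG (the E-box), TATAAA (the TATA box) and CCGGAAG (an ETS motif). The windows are chr4:147868720-147868969 on the minus strand for Miip, chr4:148448332-148448581 on the plus strand for Mtor, chr4:149955007-149955256 on the minus strand for Spsb1 and chr4:150909922-150910171 on the minus strand for Park7.
Miip: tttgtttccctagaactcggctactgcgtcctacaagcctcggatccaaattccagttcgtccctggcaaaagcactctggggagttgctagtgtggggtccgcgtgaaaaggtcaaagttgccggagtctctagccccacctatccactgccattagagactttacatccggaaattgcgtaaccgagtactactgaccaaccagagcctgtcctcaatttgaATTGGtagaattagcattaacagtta
Mtor: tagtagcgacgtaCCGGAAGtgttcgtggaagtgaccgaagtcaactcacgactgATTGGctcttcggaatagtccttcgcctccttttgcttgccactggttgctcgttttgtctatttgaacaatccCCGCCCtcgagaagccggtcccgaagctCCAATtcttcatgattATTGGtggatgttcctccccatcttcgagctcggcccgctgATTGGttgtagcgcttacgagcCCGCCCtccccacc
Spsb1: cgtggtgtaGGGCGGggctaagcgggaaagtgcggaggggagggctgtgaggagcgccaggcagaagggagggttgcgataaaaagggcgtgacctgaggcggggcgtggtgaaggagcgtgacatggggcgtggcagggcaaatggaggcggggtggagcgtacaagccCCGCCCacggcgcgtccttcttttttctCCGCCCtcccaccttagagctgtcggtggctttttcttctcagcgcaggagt
Park7: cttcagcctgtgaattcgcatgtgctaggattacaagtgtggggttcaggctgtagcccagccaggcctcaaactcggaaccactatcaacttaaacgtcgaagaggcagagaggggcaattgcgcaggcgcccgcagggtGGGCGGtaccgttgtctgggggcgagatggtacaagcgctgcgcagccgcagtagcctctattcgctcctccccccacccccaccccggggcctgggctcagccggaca

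The 4 windows differed in their numbers of motifs and in GC content. Mtor held 4 CCAAT boxes, 2 GC boxes and 1 ETS motif, Miip held 1 CCAAT box, Spsb1 held 3 GC boxes and Park7 held 1 GC box, and their GC content was 54.4, 48.8, 64.4 and 62.4% in that order. RefSeq's table gave a promoter for 32 of the 36 members, and Prdm2, Srm, Vamp3 and Zbtb48 were not matched. With 1 window per gene, the CCAAT box was present in 12 of the 32 (37.5%), against 37.0% of the 8544 genes of the table with a promoter and 34.5% of all 27025 promoters. The GC box was present in 24 (75.0%), against 61.4% and 32.9%. The ETS motif was present in 6 (18.8%), against 15.2% and 7.05%, the TATA box in 3 (9.38%), against 6.19% and 13.0%, and the E-box in 2 (6.25%), against 8.84% and 6.05%. None of the 5 motifs contains another, and a match describes the letters only.

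Dhrs3 had the highest fold change of the members. Dhrs3 (chr4:144892534-144928209, plus strand) encodes a retinal reductase that returns retinal to retinol and so lowers the supply of retinoic acid. Its normalized counts were 53.1, 60.5 and 54.8 in shBrca2 and 26.3, 14.3 and 17.8 in shControl. All shBrca2 libraries lay above all shControl libraries, and the group means were 56.1 ± 3.86 and 19.4 ± 6.17 (SD, n = 3), with 1.54 ± 0.37 (SE) as the log2 fold change. The call was lost without shControl replicate 2, the library with the lowest value, where the log2 fold change was 1.35. Dhrs3 lies inside Vps13d, a lipid transfer protein gene on the opposite strand (chr4:144871045-145195037), and the sources used here do not say whether strand was used in counting, so reads of the pair may not be fully separated. Vps13d had 13.6, 12.3 and 17.4 normalized counts in shBrca2 and 8.08, 11.7 and 12.9 in shControl, and the groups overlapped (log2 fold change 0.41 ± 0.56, SE). On a list of 28 genes of retinoid metabolism and signalling, added after the value of Dhrs3 was seen, 18 had a row and 0 were called by DESeq2 or edgeR. At an unadjusted p under 0.05 there were 3 by DESeq2 (16.7%), all lower, and 4 by edgeR (26.7%), 3 lower and 1 higher. Of all genes, 8.33% had such a p by DESeq2 (3.88% lower) and 14.5% by edgeR (7.13% lower). The list's median was 0.04. Rbp4, a retinol carrier and its most abundant member, was at 0.03 ± 0.15 (SE).

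All 5 members that act in growth and RNA handling, Mtor, Srm, Exosc10, Tardbp and Nol9, had a fold change below 0, from -0.54 to -0.23. So had 30 of the 36 members of the list. Mtor (chr4:148448582-148557685, plus strand) had 80.4, 76.6 and 64.4 normalized counts in shBrca2 and 91.9, 116.6 and 110.7 in shControl. Every shBrca2 library was below every shControl library, by a mean of 73.8 ± 8.34 against 106 ± 12.9 (SD, n = 3), and the log2 fold change was -0.54 ± 0.25 (SE). Srm (chr4:148591513-148594619, plus strand), spermidine synthase, was the most abundant member, with 691, 475 and 419 normalized counts in shBrca2 and 815, 804 and 646 in shControl. Its groups overlapped, since shBrca2 replicate 1 lay above the lowest control, and its log2 fold change was -0.52 ± 0.19 (SE). Tardbp (chr4:148612382-148627084, minus strand), which encodes the RNA-binding protein TDP-43 that represses cryptic exons, had 59.9, 85.1 and 77.4 in shBrca2 and 80.8, 93.1 and 89.0 in shControl, and its groups overlapped (-0.23 ± 0.26, SE). The 2 other genes of this group, Exosc10, a nuclease of the nuclear RNA exosome, and Nol9, a kinase of ribosomal RNA maturation, were at -0.40 and -0.43, and only Nol9 had groups that did not overlap.

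Mad2l2 and Fbxo6 lie tail to tail with 11 bases between them, and their values differed. Mad2l2 (chr4:148130158-148145704, plus strand) had 301, 161 and 257 normalized counts in shBrca2 and 350, 405 and 364 in shControl. The shBrca2 libraries were spread widely and all lay below the controls, with means of 239 ± 71.7 and 373 ± 28.8 (SD, n = 3) and a log2 fold change of -0.65 ± 0.21 (SE). Fbxo6 (chr4:148145716-148152135, minus strand), an F-box protein that targets misfolded glycoproteins for degradation, had 212, 241 and 221 in shBrca2 and 216, 224 and 204 in shControl. Its groups overlapped throughout (0.07 ± 0.18, SE). The libraries count 3' ends, which for this pair lie side by side, and without a statement on strand their reads could be exchanged. Mad2l2 was called lower when shBrca2 replicate 1 was left out (-0.84), as was Srm (-0.76). The difference between the 2 genes was not tested, since the list was chosen on this contrast.

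**Figure D2:**
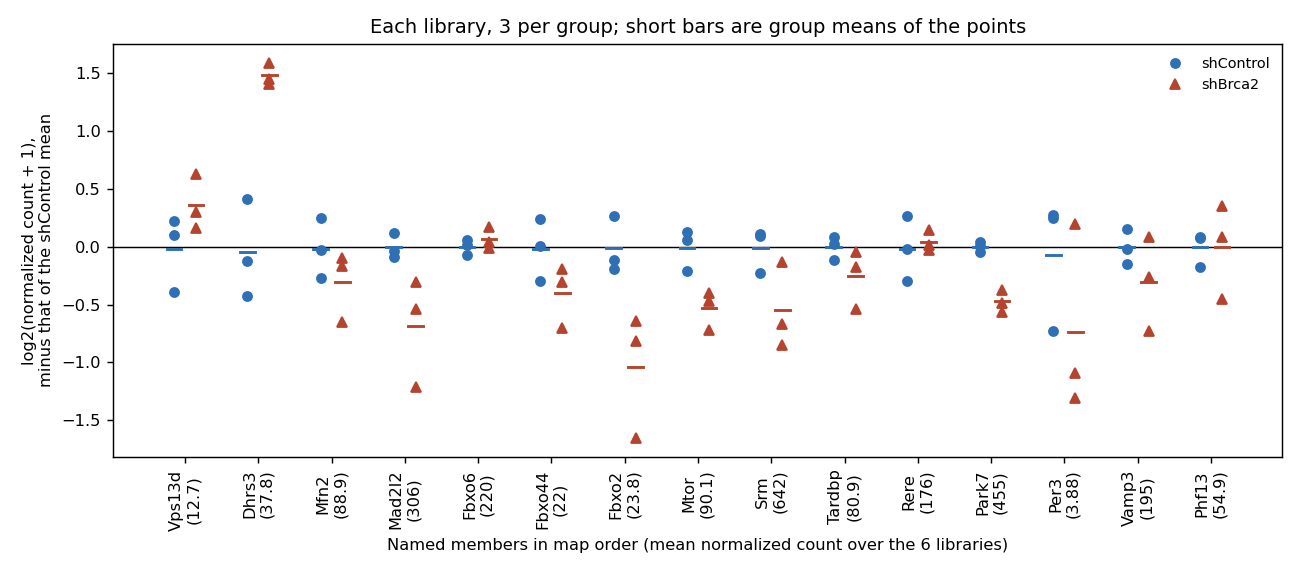
Each library's log2(normalized count + 1) minus that of the shControl mean for the 15 named members in map order, with circles for shControl and triangles for shBrca2, 3 libraries each, and short bars at the group means of the points. The number under each gene is its mean normalized count. Dhrs3 lies above its controls in all 3 libraries, Mad2l2, Fbxo2, Mtor and Park7 lie below theirs in all 3, and the other 10 overlap.

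Ubiquitin ligase components were 6 of the members, and 5 of them were below 0, from -1.03 to 0.07. Fbxo44 and Fbxo2 sit next to Fbxo6, head to head with 14 bases between them. Fbxo2 (chr4:148160198-148166420, plus strand), another receptor for high-mannose glycoproteins, had 17.7, 9.45 and 20.01 normalized counts in shBrca2 and 29.3, 38.6 and 27.7 in shControl. Its groups did not overlap and its means were 15.7 ± 5.55 and 31.9 ± 5.88 (SD, n = 3), giving the lowest log2 fold change of the members, -1.03 ± 0.45 (SE). Fbxo44 (chr4:148152799-148160183, minus strand), an F-box paralog of the same cluster, had 14.98, 21.7 and 20.01 in shBrca2 and 20.2, 25.2 and 29.7 in shControl, and its groups overlapped (-0.39 ± 0.44, SE). So within a cluster of paralogs the values ran from the lowest of the block to slightly above 0. Spsb1, a substrate receptor of cullin ligases that was picked here after its values were seen, had 14.98, 15.1 and 15.7 in shBrca2 and 22.2, 27.7 and 33.6 in shControl. The groups did not overlap, its shBrca2 libraries lay close together, and it had a log2 fold change of -0.87 ± 0.45 (SE). Ube4b, a chain-extending ligase, and Klhl21, a mitotic cullin adaptor, were at -0.43 and -0.18.

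The 6 members that serve mitochondria, redox balance and metabolism were all below 0, from -0.48 to -0.05, as were 30 of all 36 members. Park7 (chr4:150897133-150909921, minus strand) encodes DJ-1, a sensor of oxidative stress. It had 409, 378 and 359 normalized counts in shBrca2 and 546, 531 and 511 in shControl. The groups were far apart relative to their spread, 382 ± 25.3 against 529 ± 17.3 (SD, n = 3), and the log2 fold change of -0.47 ± 0.15 (SE) had the smallest error among the members. Park7 was not called, with or without the fold change minimum. Mfn2 (chr4:147873586-147904909, minus strand), which encodes mitofusin 2, a GTPase of mitochondrial fusion, had 91.3, 87.0 and 61.8 in shBrca2 and 80.8, 116.6 and 95.9 in shControl, and its groups overlapped (-0.30 ± 0.26, SE). Plod1, a collagen lysyl hydroxylase, was at -0.48, H6pd, the pentose phosphate dehydrogenase of the endoplasmic reticulum, at -0.22, Pex14, a docking protein of peroxisomal import, at -0.20, and Nmnat1, a nuclear NAD synthase, at -0.05. Only Plod1 and Park7 of these 6 had every shBrca2 library below every shControl library, as had 10.1% of all genes.

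Among 7 genes of membranes and traffic, 5 were below 0 and 2 above. Vamp3 (chr4:151047305-151057953, minus strand), a SNARE of recycling endosomes, had 226, 128 and 178 normalized counts in shBrca2 and 192, 210 and 236 in shControl. Its groups overlapped (-0.27 ± 0.22, SE). Clstn1, a kinesin cargo adaptor picked after its values were seen, had 57.2, 58.6 and 40.9 in shBrca2 and 95.0, 73.0 and 75.1 in shControl, which did not overlap, with a log2 fold change of -0.64 ± 0.28 (SE). Beside Vps13d, Kif1b, a kinesin motor, was above 0, by 0.00 ± 0.27. Clcn6 (an endosomal chloride transporter), Agtrap (an angiotensin receptor partner) and Tmem201 (a nuclear envelope protein) were at -0.51, -0.35 and -0.38.

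Genes of transcription, chromatin and the clock included 2 of the 6 members above 0. Rere (chr4:150281511-150621966, plus strand), a nuclear receptor corepressor, had 169, 191 and 175 normalized counts in shBrca2 and 140, 170 and 208 in shControl, so the shBrca2 values lay within the range of the controls (0.05 ± 0.21, SE). Phf13 (chr4:151989631-151996179, minus strand), a reader of a histone methyl mark, had 39.5, 57.7 and 69.6 in shBrca2 and 57.6, 47.8 and 57.3 in shControl, and the controls lay within the shBrca2 range (0.05 ± 0.31, SE). For both genes the sign turned when either of 2 single libraries was left out. Per3 (chr4:150997018-151044707, minus strand), a period gene of the clock, was near the limit of detection, with 1.36, 5.67 and 1.74 in shBrca2 and 6.06, 2.52 and 5.93 in shControl. Its groups overlapped and its error was larger than its log2 fold change of -0.68 ± 1.03 (SE). Prdm2, Thap3 and Zbtb48, a histone methyltransferase, a THAP-type zinc finger protein and a telomere-binding zinc finger protein, were at -0.22, -0.34 and -0.35. In genome maintenance and signalling, Mad2l2 was joined by Miip, an inhibitor of cell migration (-0.56 ± 0.31, SE), by Dffa, the inhibitor of the apoptotic nuclease (-0.18 ± 0.46), and by the beta-catenin partners Lzic (-0.25 ± 0.36) and Ctnnbip1 (-0.05 ± 0.50). The 21 members outside the 15 named by rule ranged from -0.87 to 0.00, with 20 below 0. In 8 of the 21 every shBrca2 library lay below every shControl library, as in 10.1% of all genes. The list was chosen on this contrast, so nothing is read from these counts.

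The median was below 0 in abundant and in less abundant members, and in members that overlap no other gene. Since the list was chosen on this contrast, nothing is read from these splits. The median log2 fold change was -0.38 (median SE 0.25) in the 19 members with a mean normalized count over 50 and -0.25 (median SE 0.44) in the 17 others. It was -0.38 in the 19 members that overlap no other annotated gene, 17 of which were below 0. A gap of 2.67 Mb lies between the end of Vps13d, which holds Dhrs3, and the start of Miip. The only listed gene in it, Tnfrsf1b, has no row. The 3 genes before it were at -0.22 (Prdm2), 0.41 (Vps13d) and 1.54 (Dhrs3), and of the 33 from Miip on, 29 were below 0, with a median of -0.35. In 12 members every shBrca2 library lay below every shControl library, as in 10.1% of all genes. All 12 lay beyond the gap, as did 33 of the 36 members.

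Genes off the list were also mostly below 0, with 32 of 38 in the 5 Mb before the interval, 9 of 13 inside it and 34 of 43 after it. The nearest before the interval with a row were Efhd2 (-0.47 ± 0.25, SE), Tmem51 (0.08 ± 0.20) and Tmem51os1 (-0.43 ± 1.03), and the nearest after it were Plekhg5 (-1.05 ± 0.50), Acot7 (-0.15 ± 0.15) and Icmt (-0.19 ± 0.32). At the edges of the list, Prdm2 was at -0.22 ± 0.38 and Nol9 at -0.43 ± 0.23. Inside the interval, 13 unlisted genes with a mean normalized count over 5 had a median of -0.29. The most abundant were Pgd, an enzyme of the pentose phosphate pathway (704 ± 87.8 against 908 ± 29.9, SD, n = 3, log2 fold change -0.37 ± 0.15), Errfi1 and Dnajc11 (-0.36 ± 0.22). Errfi1, a feedback inhibitor of the EGF receptor, had 294, 75.6 and 243 normalized counts in shBrca2 and 334, 110 and 60.3 in shControl, a spread within groups far larger than the difference between them.

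Along the whole chromosome the fold changes ran from above 0 at the proximal end to below 0 at the distal end. Over genes with a mean normalized count over 5, the median log2 fold change was 0.09 in the first 100 Mb (213 genes, 34.7% below 0), -0.16 from there to the interval (307 genes), -0.28 in the 5 Mb before it (38 genes) and -0.23 after it (43 genes). In windows of 10 Mb it was 0.33 at 10 to 20 Mb, -0.06 at 100 to 110 Mb and -0.16 at 120 to 130 Mb. It was -0.27 at 140 to 150 Mb and -0.24 at 150 Mb and beyond. The windows from 140 Mb on include listed genes, chosen on this contrast, so nothing is read from their medians. Chromosome 4 outside the interval had a median of -0.07, and the autosomes other than chromosome 4 had -0.01. Other chromosomes were also shifted as a whole. Of the 20 chromosomes, chromosome 4 with its listed genes included and chromosome 17 had the lowest medians, both -0.09. Without the genes of the interval, the chromosome 4 median of -0.07 lay above that of chromosome 17. Chromosome X had the highest, 0.36, with 12.9% of 279 genes below 0.

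**Figure D3:**
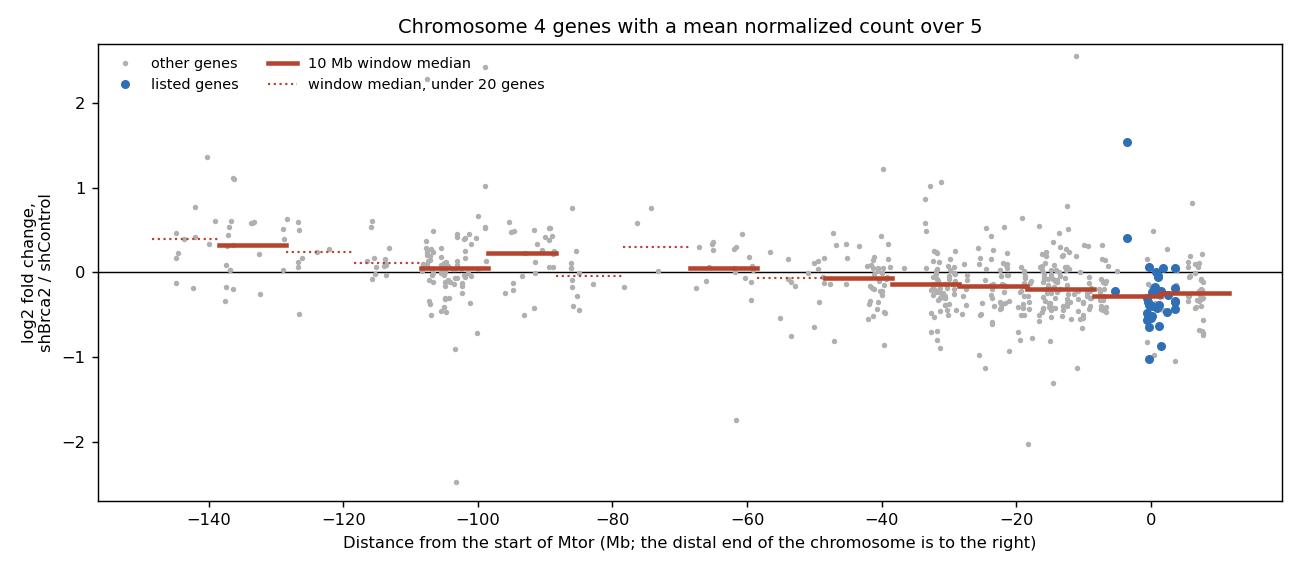
Log2 fold change (shBrca2 over shControl) of every chromosome 4 gene with a mean normalized count over 5, against the distance of its start from that of Mtor in Mb. Grey points are other genes, blue points are listed genes, and red lines are medians of 10 Mb windows, dotted where a window holds under 20 genes. The window medians pass from 0.33 at 10 to 20 Mb to -0.27 at 140 to 150 Mb. The windows from 140 Mb on include listed genes, which were chosen on this contrast.

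Base composition moved with position. The median GC content of the members' transcripts was 53.0%, against 49.7% over all genes, 46.2% in the first 100 Mb of chromosome 4 and 54.0% in the genes after the interval. With each library's GC trend removed, the members' median was -0.29, with 30 of 36 below 0, beside -0.03 over all genes. The first 100 Mb then stood at 0.01, the stretch from there to the interval at -0.16, the unlisted genes inside at -0.20 and the genes after it at -0.14. When each library was left out in turn, the members' median ranged from -0.40 to -0.27.

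**Figure D4:**
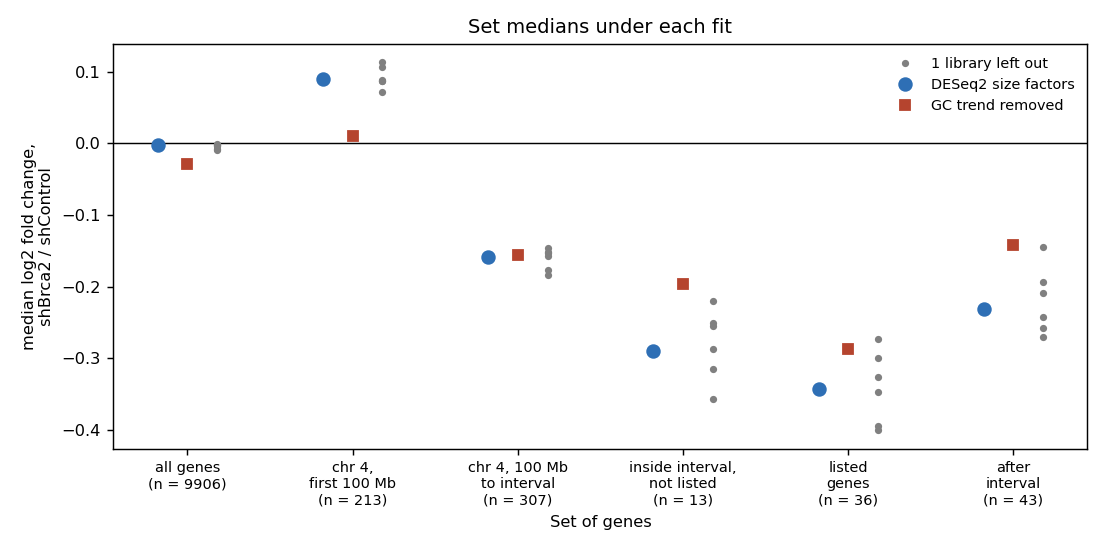
Median log2 fold change (shBrca2 over shControl) of 6 sets of genes under DESeq2 size factors (circles), with the GC trend removed (squares) and with each of the 6 libraries left out (small points). The members' median is -0.34, -0.29 with the GC trend removed and between -0.40 and -0.27 with 1 library left out, while the first 100 Mb of chromosome 4 moves from 0.09 to 0.01 when the GC trend is removed.

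Partners of the members elsewhere in the genome were read from lists of pathway genes that hold no member. Of 41 mTOR pathway genes with a row, 0 were called by DESeq2 and 5 (12.2%) had an unadjusted p under 0.05, 3 lower and 2 higher. By edgeR, 1 of 36 was called, beside 121 of 9092 over all genes, and 5 (13.9%) had such a p. Of all genes, 8.33% had such a p by DESeq2 and 14.5% by edgeR. The list's median was -0.03, and its most abundant genes, Akt1 and Eif4ebp1, which encode a kinase above and a translation repressor below mTOR, were at -0.25 ± 0.17 and -0.17 ± 0.18 (SE). The gene that edgeR called was Deptor, an inhibitor that binds mTOR, with 54.5, 50.1 and 46.1 normalized counts in shBrca2 and 20.2, 27.7 and 21.8 in shControl. These did not overlap, but the log2 fold change of 1.10 ± 0.35 (SE) missed the threshold by DESeq2 (adjusted p = 0.12).

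The F-box partners gave the 1 called pathway gene. Of 14 genes of F-box ligases and glycoprotein degradation, Skp1a, the adaptor that joins F-box proteins to cullin, was called higher, with 357, 412 and 354 normalized counts in shBrca2 and 221, 263 and 253 in shControl. All shBrca2 libraries lay above the controls, and the log2 fold change was 0.61 ± 0.17 (SE; adjusted p = 0.0459 by DESeq2). This call was lost in each fit that left out 1 library, and with the GC trend removed (0.49 ± 0.18, SE; adjusted p = 0.208 by DESeq2). Vcp and Cul1, the most abundant genes of the list, were at 0.18 ± 0.17 and 0.18 ± 0.16, and the list's median was 0.19. By each tool 3 of the 14 (21.4%) had an unadjusted p under 0.05, 1 lower and 2 higher. Of all genes, 8.33% had such a p by DESeq2 and 14.5% by edgeR, and DESeq2 called 1.27% of the genes tested.

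In the other lists DESeq2 and edgeR called 0 genes. Over all genes, 8.33% had an unadjusted p under 0.05 by DESeq2 and 14.5% by edgeR. Of 16 Rev7 partners (median -0.05, led by Stn1 at -0.23 ± 0.17, SE, and Poldip2 at -0.06 ± 0.18) 1 had an unadjusted p under 0.05 by DESeq2 and 3 by edgeR. Of 15 polyamine genes (median -0.05, led by Eif5a at -0.08 ± 0.14 and Mat2a at -0.14 ± 0.14) 2 did by each tool. Of 17 RNA exosome genes (median -0.04, led by Exosc6 at -0.43 ± 0.16 and Exosc8 at -0.17 ± 0.18) 1 did by DESeq2 and 3 by edgeR.

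Of 14 peroxisome genes (median -0.08, led by Pex6 at -0.24 ± 0.23, SE) 0 had an unadjusted p under 0.05 by DESeq2 and 1 by edgeR. Of 14 genes of mitochondrial dynamics (median 0.12, led by Mff at -0.41 ± 0.18 and Fis1 at 0.01 ± 0.20) 2 did by DESeq2 and 1 by edgeR. With the GC trend removed Mff, a receptor of mitochondrial fission whose transcript has a GC content of 37.3%, was called lower (-0.81 ± 0.17, SE; adjusted p = 0.000656 by DESeq2). Of 17 clock genes (median 0.07, led by Csnk1d at 0.24 ± 0.18 and Csnk1e at -0.04 ± 0.21) 1 did by DESeq2 and 2 by edgeR. Per1 and Per2, the paralogs of Per3, had low mean normalized counts of 11.7 and 15.6 and fold changes of 0.23 ± 0.59 and 0.86 ± 0.52.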

How the data were processed

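RNA of 6 libraries of KPC cells was measured, 3 shBrca2 and 3 shControl. The authors deposited raw read counts per gene symbol, neither normalized nor pooled. The submitters' processing notes name bcl2fastq, cutadapt, STAR 2.4.2a, HTSeq, DESeq2 and mm10. The use of strand and of molecular identifiers in counting is not given in the sources used here, so a count is not known to be 1 molecule. The study's batch correction is described for microdissected tissue, and no batch was fitted.

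Counts were fitted over all genes with DESeq2 1.42.0 in R 4.3.3 (median-of-ratios size factors, likelihood ratio test of group), and calls needed an adjusted p under 0.1, a log2 fold change beyond 0.5 either way and a mean normalized count over 5, after the study's methods. DESeq2 gave 9997 of 10616 genes an adjusted p. Fold changes were not shrunken. Alternatives were edgeR 4.0.16, the Wald test, TMM or total-count size factors, a low-count filter (10 counts in 3 libraries), removal of a loess trend on transcript GC (span 0.5), other thresholds, and each library left out. The scripts were tested on simulated counts. Coordinates are from RefSeq GRCm38.p6, and transcript GC is from GENCODE vM39 on GRCm39.

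The members and lists were chosen with earlier results of these data known. Named were every called member, the 6 most abundant, the 4 farthest on the opposite side of 0 from the median, and Pdpn, Mfn2, Mad2l2, Fbxo2, Fbxo6, Fbxo44, Mtor, Srm, Tardbp, Park7 and Per3 for their roles, and, from each pathway list, called genes and the 2 most abundant. Some genes that this rule names are not reported here. The retinoid list, and chromosome 4 sets under other fits, were added after seeing the data.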

Additional observations from a re-analysis of the deposited data

How the results depend on the processing

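Most values kept their direction. Of 178 comparisons of the 15 named members with an alternative fit, 171 kept direction and side of the threshold, 2 passed it only without shBrca2 replicate 1 (Srm and Mad2l2), 1 missed it only without shControl replicate 2 (Dhrs3) and 4 turned sign. Rere turned to -0.0075 without shBrca2 replicate 2 and to -0.082 without shControl replicate 1, and ranged from -0.08 to 0.20 over the fits with 1 library left out. Phf13 turned to -0.14 without shBrca2 replicate 3 and to -0.033 without shControl replicate 2, and ranged from -0.14 to 0.23. Of the 36 members, 26 were lower and 3 higher in the main fit and in every alternative that gave them a value, of 12. The members' median moved to -0.29 with the GC trend removed and ranged from -0.40 to -0.27 with 1 library left out. Called members numbered 0 to 3 in those fits, 3 without shBrca2 replicate 1 and 0 without shControl replicate 2. Genes called over the table numbered 47 to 140 against 127, with 81 without shBrca2 replicate 1, 47 without shBrca2 replicate 3 and 55 without shControl replicate 2. Called genes of the pathway lists numbered 2 (Deptor and Skp1a) by edgeR, with TMM factors, with total counts and with the low-count filter. There was 1 with the GC trend removed, where Skp1a was lost and Mff was called lower. In each fit with 1 library left out there were 0. The fits with 1 library left out have fewer samples, and the cause of any of these changes was not tested. No paired analysis was possible because the labels carry no replicate numbers, and those used here only name libraries in accession order. With 3 libraries a group and a median SE of 0.308, a single member's shift near the median cannot be told from 0 at this depth.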
